A study of Mus musculus with 16 samples.

Results

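The genes of the BBSome, its membrane recruiter and 1 of its assembly chaperonins were examined for binding of Foxn3, Foxn4 and Rfx3 in the developing mouse retina. The set held 10 of 21883 protein-coding genes: the 8 subunit genes Bbs1, Bbs2, Bbs4, Bbs5, Bbs7, Ttc8, Bbs9 and Bbip1, and the 2 genes Arl6 and Mkks. They were taken by name for their role and not by a measured value, although earlier results of these data were known. All 10 were found in the RefSeq gene table of GRCm38.p6 (the mm10 assembly). The study assayed retinas of CD-1 mouse embryos at embryonic day 16 by CUT&RUN, in which an antibody directs micrococcal nuclease to cut DNA beside a bound protein. Embryos were of an outbred strain, their retinas were pooled before dissociation, and no genotype or agent other than the antibody is named. There were 4 libraries for Foxn3 (in 2 experiments), 2 for Foxn4 and 2 for Rfx3, beside 8 libraries of control immunoglobulin. The Foxn4 libraries and their mouse immunoglobulin controls were digested for about 12 h and all others for 1 h, so antibody and digestion time cannot be told apart for Foxn4.

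The deposited values were 1 peak list per factor, with 2794 peaks for Foxn3, 2956 for Foxn4 and 3981 for Rfx3. A list carries no values of single libraries, so nothing below has a spread between replicates, no difference could be tested over samples, and the depth behind a peak is unknown. The control libraries have no values here, and the tissue label could not be checked against marker genes because peaks give no expression. Each peak has a score of the authors, on an unstated scale that differs between lists. It is used here only as a rank, given as the percentage of peaks of the same list that scored lower.

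The BBSome is a coat-like complex that carries membrane proteins into and out of the primary cilium. The small GTPase encoded by Arl6 brings it to the membrane, and the chaperonin-like protein encoded by Mkks helps to build its core from newly made subunits. In humans, mutations in these genes cause Bardet-Biedl syndrome, in which photoreceptors, whose outer segment is a modified cilium, degenerate. Rfx3 belongs to the RFX winged-helix proteins, which bind a DNA element called the X-box and are known regulators of cilium genes. Foxn3 and Foxn4 are forkhead proteins, and Foxn4 is known for its role in forming amacrine and horizontal cells.

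Sequences around the starts of transcription came from the RefSeq promoter table (GRCm38.p6), which gave 11 windows for the 10 genes, from 250 bases before to 50 bases after a start. Positions count from +1 at the first transcribed base, and every sequence reads 5′ to 3′ on the gene's own strand. The first set shows the X-box matches, because this is the element that RFX proteins bind. The consensus searched was GTNNCC and GNAAC separated by 3 unspecified bases, on both strands, and the first arm of the classical element, GTTGCC, was searched alone, although it can lie inside the consensus. Capitals mark the consensus in Bbs1 (chr19:4906598-4906627, minus strand), Bbs4 (chr9:59353464-59353493, minus strand) and Bbs7 (chr3:36613489-36613518, minus strand), and the first arm in Bbs5 (chr2:69647191-69647220, plus strand). In Bbs1 the consensus matched on the other strand only, so its capitals show the reverse complement of the match. The Bbs5 run ends at the edge of the window, so a full element there could not be scored.
Bbs1: gGTTGCCAAGGCGACgcctgggaaaatggc
Bbs4: ctcagctgGTCGCCCGGGAAACggtcggct
Bbs5: gatgtcgtgacaaagccggcgcGTTGCCtt
Bbs7: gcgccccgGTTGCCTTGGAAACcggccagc

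The second set gives the 250 bases before the start for 4 genes that differ in their peaks. Bbs7 and Bbs2 had the highest-ranked Foxn3 and Rfx3 peaks of the set, the former with an X-box and the latter with none in its window, and Bbs2, Bbip1 and Mkks had peaks of every factor at the start. Capitals mark the X-box consensus and the FHL motif GACGC (or GCGTC, the same motif on the other strand), which forkhead proteins of the FOXN type are known to bind. The stretches are chr3:36613390-36613639 for Bbs7, chr8:94098510-94098759 for Bbs2, chr19:53944628-53944877 for Bbip1 and chr2:136891407-136891656 for Mkks, all on the minus strand.
Bbs7: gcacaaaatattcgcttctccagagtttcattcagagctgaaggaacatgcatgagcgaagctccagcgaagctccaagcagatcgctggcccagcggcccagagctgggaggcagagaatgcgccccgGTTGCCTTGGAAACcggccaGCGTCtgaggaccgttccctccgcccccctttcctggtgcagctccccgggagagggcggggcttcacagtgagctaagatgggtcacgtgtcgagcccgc
Bbs2: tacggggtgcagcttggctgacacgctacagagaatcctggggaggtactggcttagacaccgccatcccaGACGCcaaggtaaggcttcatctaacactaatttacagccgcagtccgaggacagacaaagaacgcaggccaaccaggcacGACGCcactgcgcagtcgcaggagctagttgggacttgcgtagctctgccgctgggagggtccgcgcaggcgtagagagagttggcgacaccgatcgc
Bbip1: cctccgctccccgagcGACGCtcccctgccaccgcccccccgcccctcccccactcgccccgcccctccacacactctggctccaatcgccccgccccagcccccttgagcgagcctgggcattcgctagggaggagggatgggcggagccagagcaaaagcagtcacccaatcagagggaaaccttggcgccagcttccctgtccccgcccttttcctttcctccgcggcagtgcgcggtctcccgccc
Mkks: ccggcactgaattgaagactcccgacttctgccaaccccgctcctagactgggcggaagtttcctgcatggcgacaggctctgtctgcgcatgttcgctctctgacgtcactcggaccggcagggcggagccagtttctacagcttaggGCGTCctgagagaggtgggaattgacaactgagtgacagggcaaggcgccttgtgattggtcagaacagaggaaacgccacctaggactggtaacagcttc

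Rfx3 had a peak at the start of transcription of all 10 genes, Foxn3 at 7 and Foxn4 at 3. Counted from listed starts, with the peak midpoint within 1 kb, these counts stand beside 11.6% of all 17491 protein-coding genes with a promoter window for Rfx3, 9.66% for Foxn3 and 5.29% for Foxn4. Counted from either annotated end of the gene, Rfx3 marked 9 of 10 genes (10.6% of all genes), Foxn3 6 (8.81%) and Foxn4 3 (4.83%), and at least 1 list had a peak for each of the 10 (12.8%). With the gene body and 10 kb on either side the counts were 10 for Rfx3 (19% of all genes), 8 for Foxn3 (15.2%) and 4 for Foxn4 (10.5%). In this window Bbs1 had Foxn3 only through a peak over the promoter window of the neighbouring gene Zdhhc24. Bbs7 had Foxn4 through a peak inside the neighbouring gene Ccna2 and another inside its own body, away from the start. Foxn3 peaks were absent from the starts of Bbs1, Bbs4 and Bbs9. These 3 genes had Rfx3 without Foxn3 at an end, as did 3.08% of all genes. Among genes with an Rfx3 peak at an end, Foxn3 was lacking at 3 of 9 in the set and at 675 of 2327 over all genes.

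**Figure D1:**
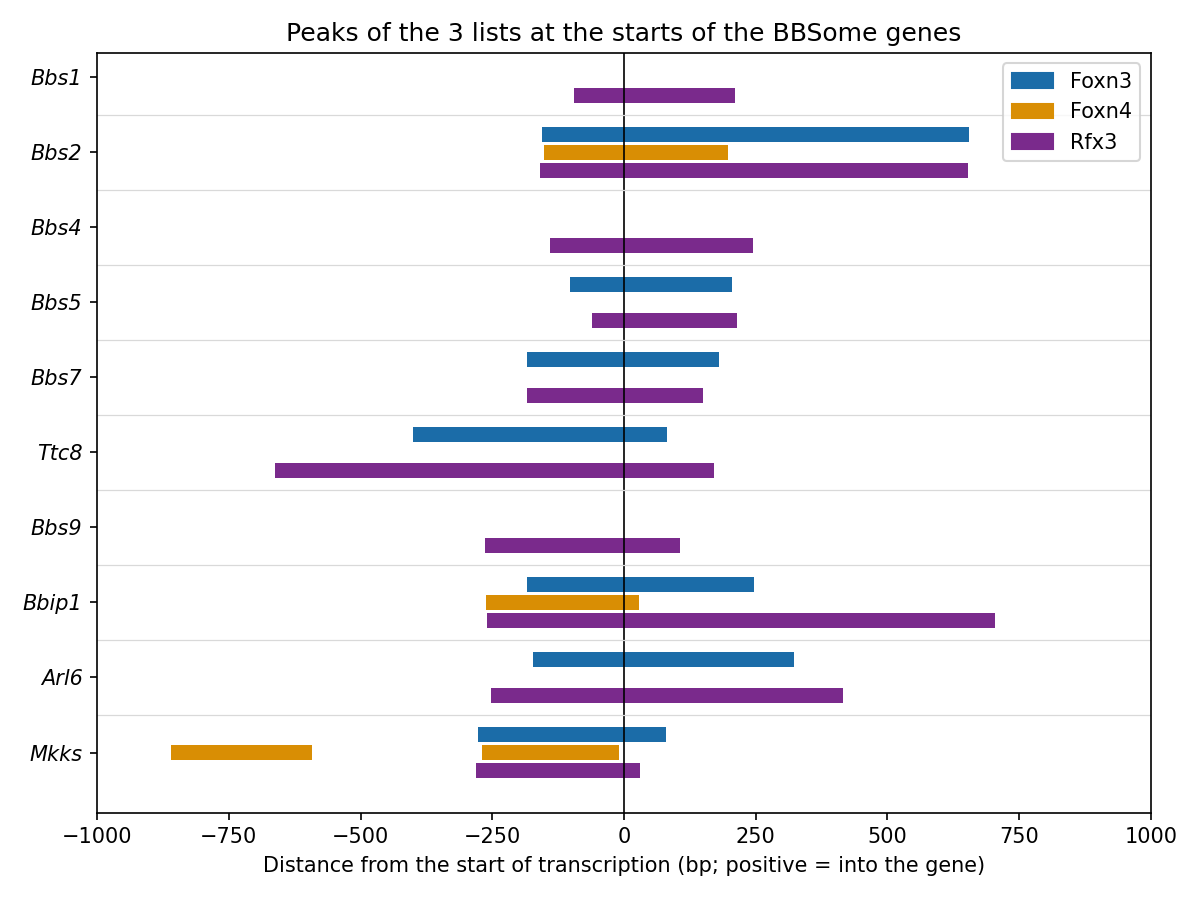
Peaks of the 3 lists around the start of transcription of each gene (x axis, distance from the start in bp, positive into the gene; bars span each peak). An Rfx3 bar crosses the start of every gene, Foxn3 bars cross 7 of the 10, and Foxn4 bars lie at Bbs2, Bbip1 and Mkks.

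The 2 counting rules differ at 1 gene, Bbs2, which encodes a β-propeller subunit of the BBSome core. Its annotated outer end lies 860 bp before the listed start of transcription. The Foxn3 midpoint lay 1109 bp and the Rfx3 midpoint 1107 bp from that end, just outside 1 kb, but 249 and 247 bp inside the gene when counted from the start. The Foxn4 midpoint of Bbs2 lay 883 bp from the end and was just inside. At Bbs7 the values nearest the threshold belonged to the other side of the gene, with a Foxn3 midpoint at 972 bp and an Rfx3 midpoint at 1030 bp.

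Among the subunits of the core, Bbs7 and Bbs2 carried high-ranking peaks of both Foxn3 and Rfx3, and Bbs9 did not. At Bbs7 (chromosome 3, 36573142 to 36613492), another β-propeller subunit, the Foxn3 peak spanned 36613209 to 36613573 with a score of 179 (higher than 94.2% of its list). The Rfx3 peak there spanned 36613240 to 36613573 with a score of 512 (94.0%). Both peaks ended at the same base upstream, and their midpoints were 15 bp apart, 2 and 17 bp before the start of transcription.

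At Bbs2 (chromosome 8, 94067952 to 94099369) the Foxn3 peak spanned 94097855 to 94098665 with a score of 195 (95.0% of the list lower), and the Rfx3 peak spanned 94097857 to 94098668 with a score of 580 (95.2%). The pair had midpoints 2 bp apart and nearly the same borders. Both were wide, at 811 and 812 bp, against list medians of 384 and 469 bp. The Foxn4 peak at Bbs2, 94098312 to 94098661, had a score of 6.22 (29.3%) and lay wholly inside the other peaks.

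Bbs9 (chromosome 9, 22475559 to 22888283), the longest gene of the set at 412725 bp, encodes another subunit of the core. Its only peak in the body or within 10 kb was an Rfx3 peak at the start, 22475452 to 22475820, with a score of 41 (22.7% of the list lower).

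Bbs1, the β-propeller subunit that contacts the Arl6 protein, had an Rfx3 peak and no Foxn3 or Foxn4 peak at its start. This gene spans 4886878 to 4906653 on chromosome 19. The Rfx3 peak spanned 4906418 to 4906722, with a score of 99 (60.2% of the list lower) and a midpoint 57 bp inside the gene. An end of Dpp3, the 3′ end because that gene is listed on the minus strand too, lay 659 bp from this midpoint.

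The subunits made of tetratricopeptide repeats, Bbs4 and Ttc8, differed in the number of factors. Bbs4 (chromosome 9, 59321966 to 59353508) had only an Rfx3 peak, 59353264 to 59353648, with a score of 87 (55.7%) and a midpoint 52 bp inside the gene. Ttc8 (chromosome 12, 98920537 to 98983250) carried Foxn3 from 98920174 to 98920655 with a score of 55.1 (72.7%) and an Rfx3 peak at 98919912 to 98920743 with a score of 342 (89.1%). Its midpoints were the farthest upstream of the set, 160 bp before the start for Foxn3 and 247 bp for Rfx3.

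Bbs5, the subunit with membrane-lipid-binding domains, ranked high for Foxn3 and near the middle for Rfx3. In this gene (chromosome 2, 69646848 to 69667571) the Foxn3 peak spanned 69647069 to 69647375 with a score of 145 (91.9% of the list lower). The Rfx3 peak, 69647111 to 69647384, had a score of 79 (51.5%) and at 274 bp was the narrowest of the 10 Rfx3 peaks. Their midpoints were 25 bp apart.

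Bbip1, the smallest subunit, and Mkks were the genes where peaks of all factors overlapped within 1 kb of an end (2 of 10, beside 3.01% of all genes). Counted from starts, Bbs2 joined them (3 of 10, beside 3.42%). At Bbip1 (chromosome 19, 53929656 to 53944627) the scores were 19.6 for Foxn3 (26.7% of the list lower, 53944382 to 53944811), 8 for Foxn4 (57.4%, 53944600 to 53944889) and 58 for Rfx3 (37.7%, 53943924 to 53944887). The Rfx3 peak was the widest of the set at 964 bp. These peaks are shared with Shoc2, which is listed on the plus strand and whose body overlaps that of Bbip1 by 396 bp. Midpoints lay 364, 512 and 173 bp from an end of Shoc2, in the same order, so the peaks cannot be assigned to 1 gene.

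Mkks (chromosome 2, 136873780 to 136891406) showed the same arrangement with Slx4ip, a plus-strand gene that overlaps it by 194 bp. The Foxn3 peak at 136891327 to 136891683 had a score of 29.0 (47.2%), the Foxn4 peak at 136891417 to 136891676 a score of 7.11 (44.1%) and the Rfx3 peak at 136891377 to 136891687 a score of 34 (16.03%). The Rfx3 value was the lowest rank of the 10. A second Foxn4 peak, 136891999 to 136892266, lay 726 bp upstream of Mkks, overlapped no other list and overlapped a promoter window of Slx4ip.

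Arl6, the membrane recruiter, ranked low for Foxn3 and high for Rfx3. In this gene (chromosome 16, 59612949 to 59639409) the Foxn3 peak at 59639087 to 59639582 had a score of 15.9 (16.2% of the list lower), and the Rfx3 peak at 59638995 to 59639662 a score of 170 (75.7%). The order was the reverse of that at Bbs5, although the midpoints at Arl6 were only 6 bp apart.

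**Figure D2:**
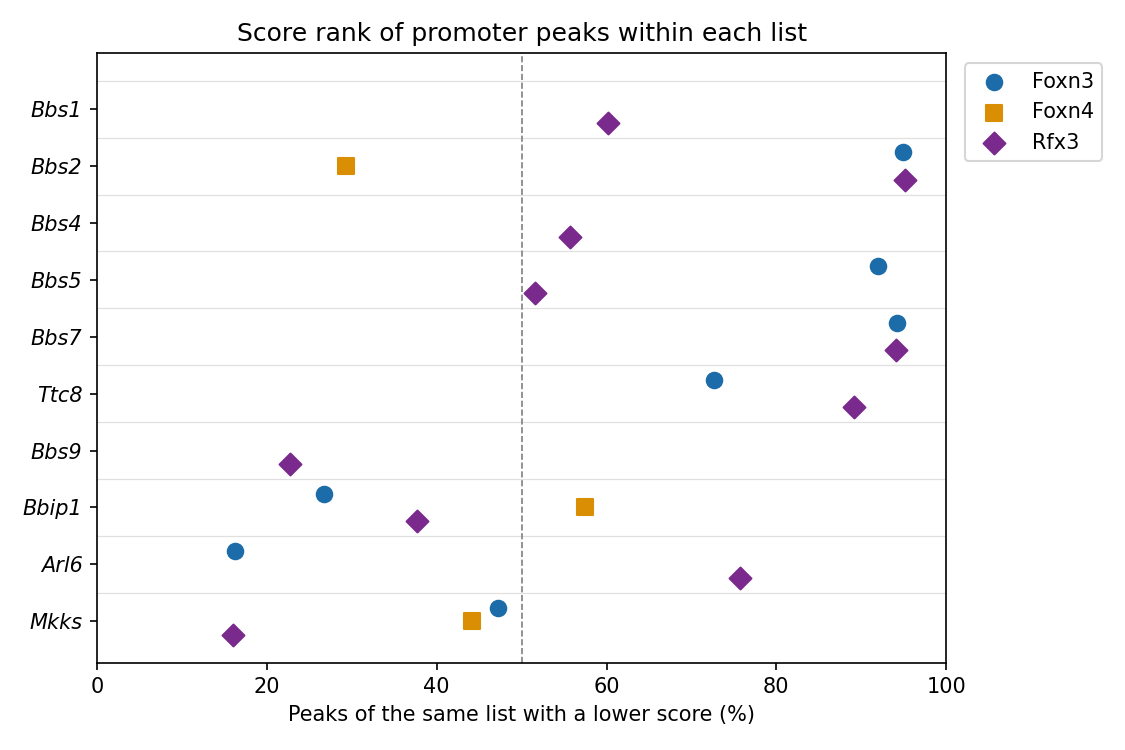
Rank of the promoter peak of each gene within its own list (x axis, percentage of peaks of the same list that scored lower; circles Foxn3, squares Foxn4, diamonds Rfx3; the dashed line marks 50%). Bbs2 and Bbs7 lie above 90% for Foxn3 and Rfx3, and no Foxn4 square lies above 60%.

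Over the set, the ranks of the promoter peaks spread widely. Rfx3 peaks ran from 16.03% to 95.2% with a median of 58.0% over 10 genes, and 4 were among the upper 25% of their list. Foxn3 peaks ran from 16.2% to 95.0% with a median of 72.7% over 7 genes, and 3 were among the upper 25%. The 3 Foxn4 peaks ran from 29.3% to 57.4%. Over all genes marked at an end, the median of the highest peak was 47.8% for Rfx3, 53.8% for Foxn3 and 44.1% for Foxn4. The corresponding medians for the set by the same rule were 55.7%, 59.9% and 44.1%. By this rule, 3 of the 9 genes marked by Rfx3 and 2 of the 6 marked by Foxn3 had a peak in the upper 25%. Over all genes, 3.11% had such an Rfx3 peak, of 10.6% with any, and 2.66% such a Foxn3 peak, of 8.81%.

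At each of the 7 genes with a Foxn3 peak at the start, it overlapped the Rfx3 peak there. Over all genes, 1450 of the 1690 with a Foxn3 peak within 1 kb of a start had such an overlap. From gene ends, 6 of 10 genes had overlapping Foxn3 and Rfx3 peaks, beside 7.53% of all genes, and from starts 7 of 10, beside 8.29%. Of all genes with an Rfx3 peak within 1 kb of a start, 71.7% also had a Foxn3 peak, so 7 of 10 is near that share. Midpoints of the 7 overlapping pairs lay 2 to 191 bp apart with a median of 25 bp, beside a median of 47 bp over all 2272 overlapping pairs of these lists. The sets are unlike, because the 7 are pairs at starts and the 2272 lie at any position. Overlapping pairs beyond the 3′ ends of Bbs1 and Bbs7 are not among the 7.

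Few other peaks lay in or near these genes. Near the 3′ end of Bbs7 stood peaks of every list, Foxn3 at 36571941 to 36572399 (score 15.9, 16.2% of the list lower), Foxn4 at 36571805 to 36572200 (4.44, 5.18%) and Rfx3 at 36571868 to 36572356 (62, 40.9%). They overlapped each other and lay outside Bbs7, inside the body of Ccna2, the gene of the cell-cycle regulator cyclin A2. Ccna2 has an end 104 bp from Bbs7, and the Foxn3 and Rfx3 midpoints lay 868 and 926 bp from that end. A Foxn4 peak at 36580013 to 36580254 inside Bbs7 (7.11, 44.1%) overlapped no other list. Beyond the 3′ end of Bbs1, Foxn3 (4878504 to 4878712, score 25.2) and Rfx3 (4878496 to 4878851, score 39) peaks lay over 8 kb away, 60 and 5 bp from an end of Zdhhc24 and within 1 kb of Actn3. They overlapped the promoter window of Zdhhc24. Outside the starts, the other 8 genes had only the second Foxn4 peak of Mkks. Exons are not given in the gene and promoter tables, so exonic or intronic position is not stated.

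The X-box consensus was found in the promoter windows of Bbs1 (+2 to +15), Bbs4 (+24 to +37) and Bbs7 (-121 to -108), 3 of 10 genes. Of the 17491 genes with a promoter window, the base of all gene shares given for motifs, 2.55% had such a match. Of all windows 2.24% had one, against 13.1% of windows overlapped by an Rfx3 peak and 12.2% of those overlapped by a Foxn3 peak. With 1 mismatch allowed the same 3 genes matched, beside 21.2% of all genes, 18.8% of windows and 35.3% of windows with an Rfx3 peak. The distance from the background thus depends on an exact match. Each of the 3 matches lay inside an Rfx3 peak, 49, 22 and 97 bp from its midpoint. The Bbs7 element alone also lay inside a Foxn3 peak. The arm GTTGCC was present in Bbs1, Bbs5 and Bbs7, beside 14.4% of all genes and 27% of windows with an Rfx3 peak. In Bbs5 it lay at +43 to +48, 7 bp from the Foxn3 midpoint and 32 bp from the Rfx3 midpoint. The windows of Bbs2, Ttc8, Bbs9, Bbip1, Arl6 and Mkks held neither form.

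The forkhead motifs divided the set differently. The FHL motif GACGC occurred in the windows of 9 of the 10 genes, all but Bbs4, beside 36.3% of all genes. Of windows with a peak, 57.4% held it for Foxn3, 57.1% for Foxn4 and 55.2% for Rfx3. In Mkks it lay at the Foxn3 midpoint and 41 bp from the Foxn4 midpoint. In Bbs1 a copy at +13 to +17 overlapped the end of the X-box, and in Bbs7 a copy lay at -101 to -97, beside the X-box. Another copy in Bbs7, at +22 to +26, lay nearer the midpoints. It was 25 bp from that of Foxn3 and 40 bp from that of Rfx3, against 97 and 82 bp. In Bbs1 and Bbs9 the motif was present without a Foxn3 peak. The only copy in Bbip1, at -234 to -230, lay inside the Foxn4 and Rfx3 peaks and outside the Foxn3 peak, and 1 of the copies in Bbs2, at -179 to -175, lay in no peak. The classical forkhead motif TGTTTAC was found in none of the 11 windows, beside 3.45% of all genes. The CCAAT box CCAAT, a comparison motif, was found in Bbs1, Bbip1, Arl6 and Mkks. It was in 42.3% of all genes and 54.8% of windows with an Rfx3 peak. All motifs were searched on both strands.

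Base composition was described for the same windows. The windows of the set held a median of 22 CpG dinucleotides and 62% G and C, against 13 and 56.3% over all windows, and 22 and 61.7% over windows with an Rfx3 peak. GACGC contains a CpG. Its part in the counts of this motif was not tested. The lowest CpG counts were 11 in Bbs4, 12 in Bbs1 and 13 in Bbs5, and the highest 26 in Bbs2 and in 1 of the Arl6 windows.

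**Figure D3:**
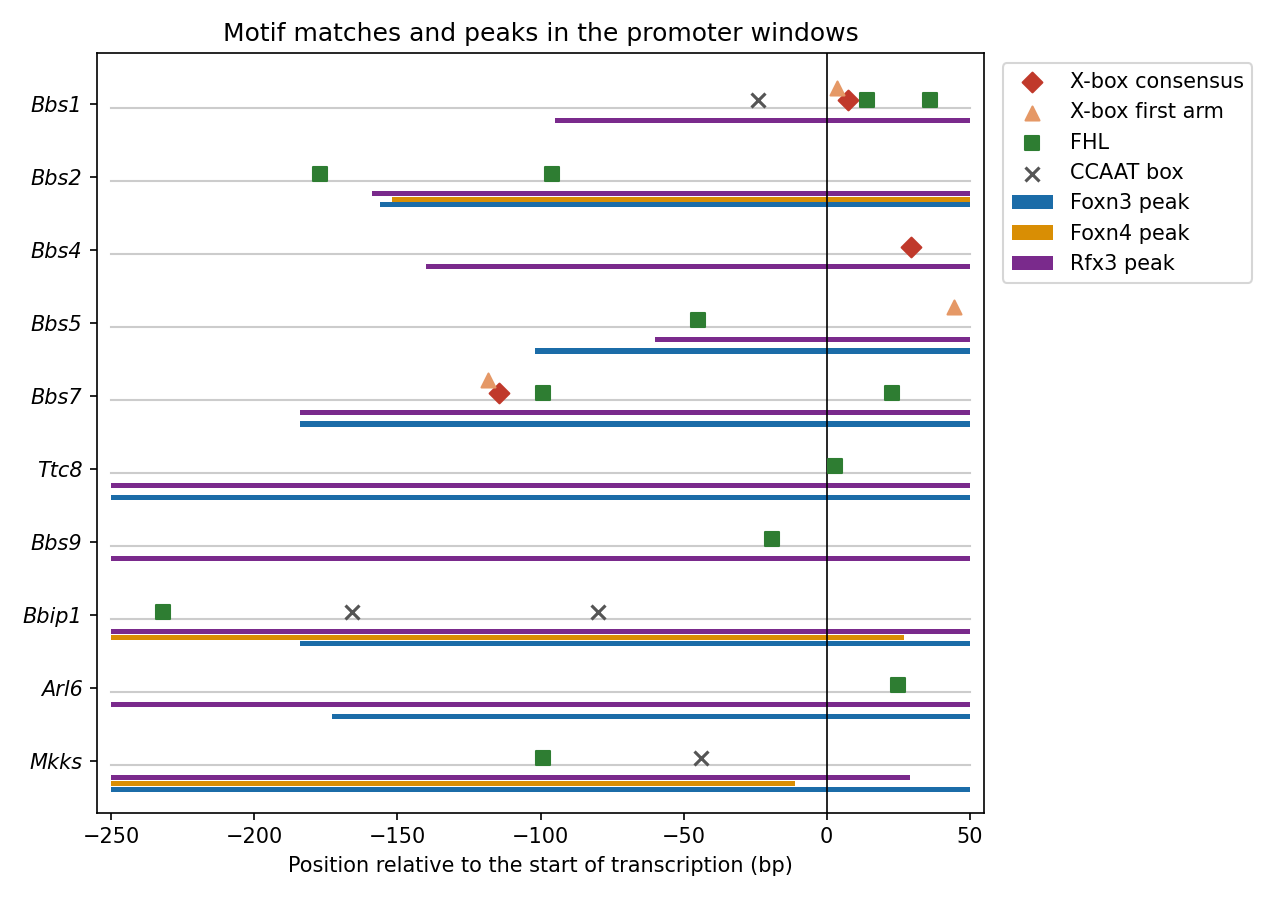
Motif matches (symbols) and peaks (coloured bars, cut at the window) in the promoter window of each gene (x axis, position relative to the start of transcription in bp; for Arl6 the outer of its 2 starts). X-box consensus matches lie in Bbs1, Bbs4 and Bbs7, and FHL matches in 9 of the 10 genes.

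Other genes of the pathway were described from fixed lists, by peaks within 1 kb of either end. By this rule the shares over all genes were 10.6% for Rfx3, 8.81% for Foxn3 and 4.83% for Foxn4. Of 10 chaperonin genes, 5 had an Rfx3 peak (50%), 3 a Foxn3 peak (30%) and 4 a Foxn4 peak (40%). They comprise the BBS chaperonin-like genes Bbs10 and Bbs12, partners of Mkks, and the CCT subunits. Bbs12 had an Rfx3 peak alone (73.7% of the list lower), and Bbs10 had no peak. Tcp1, Cct3 and Cct7 had peaks in every list, with Rfx3 ranks from 13.1% to 22.7%, Cct2 had Rfx3 alone and Cct6a had Foxn4 alone.

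Of 15 regulators and partners of the BBSome, 10 had an Rfx3 peak (66.7%), 8 a Foxn3 peak (53.3%) and 5 a Foxn4 peak (33.3%). Lztfl1, whose product holds the BBSome back from the cilium, had high ranks for both Foxn3 (95.6%) and Rfx3 (98.3%). Ift27, which links the BBSome to intraflagellar transport, had peaks in every list (45.7% for Foxn3, 86.0% for Foxn4, 62.0% for Rfx3). Rab8a, a GTPase of ciliary membrane traffic, Pcm1, a centriolar satellite scaffold, and Tbc1d32 did too. Rabl2, Ift81 and Arl13b had Foxn3 and Rfx3, Hspb11 (Ift25) had Foxn4 and Rfx3, and Rab3ip, the exchange factor of Rab8, had Rfx3 alone.

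Genes for BBSome cargo were described in the same way. Of 13 genes for ciliary membrane proteins, most of them receptors and including Sstr3, Gpr161 and Smo, none had an Rfx3 or a Foxn4 peak within 1 kb of an end. A single one, the Hedgehog receptor gene Ptch1, had a Foxn3 peak (69.2% of the list lower). The share for Foxn3, 7.69%, is near the 8.81% of all genes. Over all genes the shares were 10.6% for Rfx3 and 4.83% for Foxn4, so with 13 genes a count of 0 is near the background too. No test of this contrast was made.

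**Figure D4:**
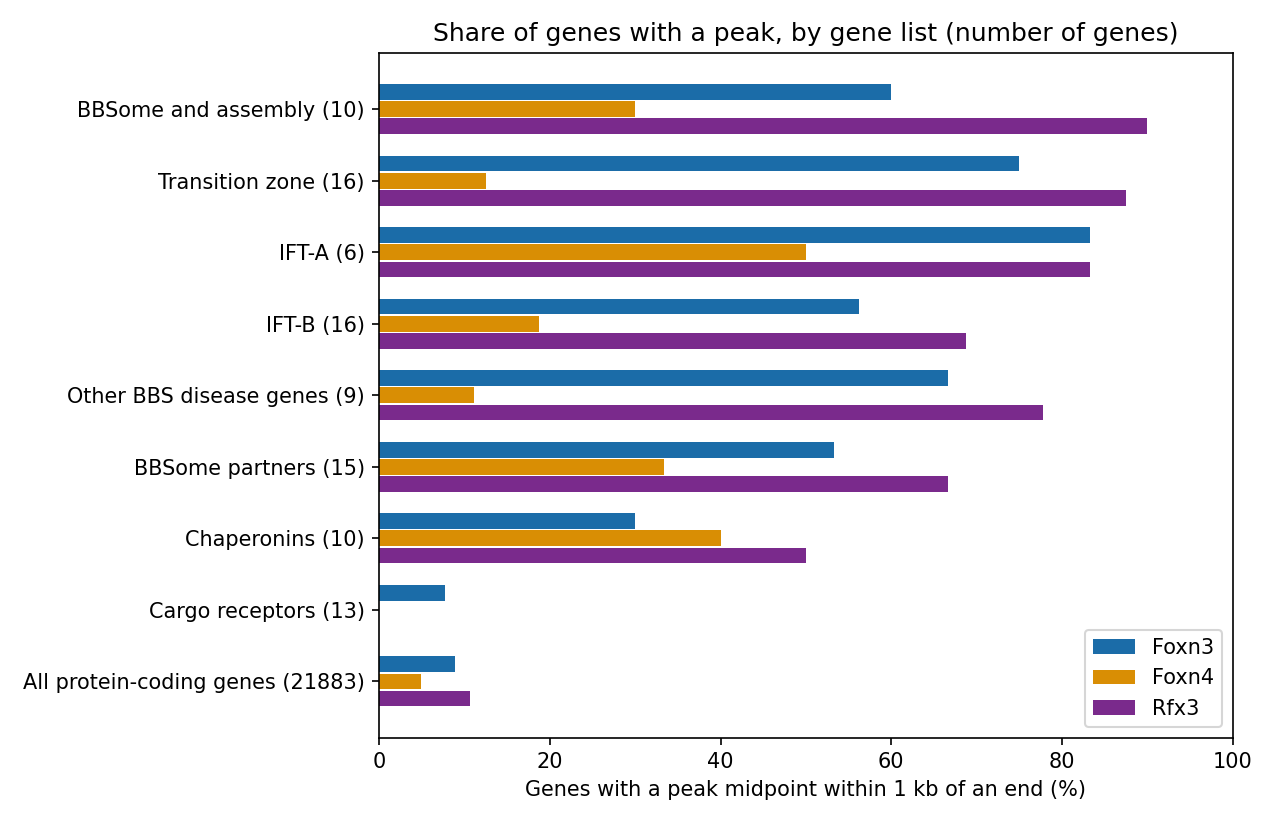
Percentage of genes with a peak midpoint within 1 kb of an end (x axis) in each gene list, with the number of genes in brackets; bars are blue for Foxn3, orange for Foxn4 and purple for Rfx3. The BBSome set reaches 90% for Rfx3, 60% for Foxn3 and 30% for Foxn4. Transition zone genes reach 87.5%, 75% and 12.5%, and IFT-A genes 83.3%, 83.3% and 50%, in the same order. Cargo receptors stay below 10%.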

How the data were processed

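CUT&RUN libraries were made from pooled retinas, per the labels' protocols. The submitters' processing notes name cutadapt, Bowtie2, UMI-tools, bedtools and SEACR without role, and the build mm10. How libraries were combined, the use of the IgG libraries and the threshold are not given in the sources used here. Each deposited peak has a score, the authors' own value, whose scale is not stated.

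The 10 genes and all lists were chosen with earlier results of these data known. Peak midpoints were set against gene ends (GRCm38.p6, the assembly of mm10), 1 kb counting as near, and in the body or within 10 kb as the wider window. Peaks overlapping by 1 bp counted as shared. Positions count from 1. Motifs were searched in the 300 bp RefSeq promoter windows. Counts for the set are read against the same count over 21883 protein-coding genes. For starts and motifs the count is over the 17491 genes with a promoter window. No test was made. Named are all 10 genes, neighbours with an end within 1 kb of the same peak, and genes of 7 further lists with a peak near an end; some genes of these lists are not reported here. Scripts ran in Python 3.11.15 with pandas 2.3.3 and were checked on simulated peaks and motifs. Alternatives were distance, peak edge, score threshold, overlap, start of transcription and motif mismatch.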

Additional observations from a re-analysis of the deposited data

How the results depend on the processing

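Another distance or peak edge changed 10 of 22 counts, 1 of them by over 1.5 times, and a score threshold changed 11 of 11, 7 of them by over 1.5 times. With peaks at or above the median score of their list, the genes marked by Foxn3 at an end fell from 6 to 3 (all genes, 8.81% to 4.88%), those with a Foxn3 peak in the body or within 10 kb from 8 to 4 (15.2% to 8.8%), those with overlapping Foxn3 and Rfx3 peaks from 6 to 3 (7.53% to 3.77%), and those with overlapping peaks of every factor from 2 to 0 (3.01% to 0.8%). With peaks in the upper quartile the counts at gene ends were 2 for Foxn3 (2.66% of all genes), 0 for Foxn4 (1.47%) and 3 for Rfx3 (3.11%). A threshold lowers the count for any set of genes, and the share of all genes fell with it. Within 5 kb, overlapping peaks of every factor were found at 4 genes (3.94% of all genes), Bbs2, Bbs7, Bbip1 and Mkks. Bbs7 was counted there only through the peaks beyond its 3′ end, which lie inside the body of Ccna2. Of 45 alternatives over 12 results, 37 stayed within 1.5 times the reported count or, for the ranks, within 1 SD over genes, and 8 did not. Counting joint peaks from starts was added after seeing the data. No replicate could be left out, and no paired analysis was possible because the lists carry no values of single libraries.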

Other observations

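Genes of the other ciliary transport and gate complexes were described by the same 1 kb rule. The shares over all genes to set beside each count are 10.6% for Rfx3, 8.81% for Foxn3 and 4.83% for Foxn4. Of 16 transition zone genes, which form the gate at the ciliary base, 14 had Rfx3, 12 Foxn3 and 2 Foxn4. Tctn2 had the highest ranks there, above 97.8% of the Foxn3 list and 99.9% of the Rfx3 list, and the others with both were Tmem67, Tmem231, Tmem107, Tctn1, Tctn3, B9d1, Mks1, Ahi1, Cep290, Rpgrip1l and Nphp4. Tmem17 and B9d2 had Rfx3 alone.

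Of 6 IFT-A genes, whose products carry cargo back from the ciliary tip, 5 had Foxn3 and Rfx3 (Ift122, Ift140, Wdr19, Wdr35 and Ift43), and the first 3 of these also had Foxn4. Of 16 IFT-B genes, 11 had Rfx3, 9 Foxn3 and 3 Foxn4. Ift22, Ift27, Ift52, Traf3ip1 (Ift54), Ift57, Ift80, Ift81, Ift88 and Ift172 had Foxn3 and Rfx3, Ttc26 (Ift56) had Rfx3 alone and Ift20 Foxn4 alone. Among 9 further genes of Bardet-Biedl syndrome and related ciliopathies, 7 had Rfx3, 6 Foxn3 and 1, Sdccag8, Foxn4. Mks1, Cep290, Wdpcp, Sdccag8, Ift172 and 2610301B20Rik (Cfap418) had Foxn3 and Rfx3, and Cep19 had Rfx3 alone. Some genes are in several of these lists, and no difference between lists was tested.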
